A study of Marchantia polymorpha and Arabidopsis thaliana with 40 samples.

Results

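The widest accessible regions of the Arabidopsis thaliana chromosome arms were 1136 of the 110628 regions in the deposited ATAC-seq count table. They were chosen by 3 criteria: a width of at least 1000 bp, more than 3 counts over the pair of unheated eTK libraries, and a midpoint more than 3 Mb from the centromere of their chromosome. Of 1643 regions of 1000 bp or more, 1138 lay in the arms, and 2 of those were dropped for 3 or fewer eTK control counts. The criterion on eTK counts cuts off the lowest values in eTK, so genotype differences at the low end are bounded by the choice itself. The comparison classes were the 45921 arm regions under 200 bp and the 8285 arm regions of at least 500 but under 1000 bp that met the same criterion on counts.

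ATAC-seq (assay for transposase-accessible chromatin) reads where a transposase can insert into DNA in nuclei, so its counts mark stretches that are not covered by tightly packed nucleosomes. Such stretches in plants lie mostly at promoters and other regulatory sequence, and a wide one can hold several nucleosome-depleted stretches side by side. HSFA1 proteins are heat shock transcription factors, the master regulators that start the heat response by binding heat shock elements and switching on chaperones and further transcription factors.

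The 8 Arabidopsis libraries formed 4 groups of 2, from the wild type Col-0 and from eTK, in which hsfa1a, hsfa1b and hsfa1d are all knocked out, each kept at 22 °C or taken to 37 °C for 1 h. Seedlings of both genotypes were 7 days old and grown in continuous light on sucrose medium, and nuclei were sorted from whole seedlings by DAPI staining. HSFA1e, a further member of the family, was not among the genes knocked out. The labels do not say whether the replicates came from separate cultures, so p-values measure only the spread between these samples, which may be technical. No Arabidopsis annotation was used here, so regions are given by position without gene names, the knocked-out genes were not examined, and the genome build and whether starts count from 0 or 1 are not given in the sources used here. Nuclei of all cell types were pooled, so more open nuclei and more insertion per nucleus cannot be told apart.

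The deepest library held 38.7 M counts, and the heated Col-0 libraries were the shallowest, with 19.6 and 22.3 M. These 2 libraries also stood apart in their TMM scaling factors, 0.697 and 0.715 against 1.09 to 1.15 in the other 6, and in the share of regions with an even count, 56.7% and 55.8% against 50.3% to 51.4%. Over the wide regions the share of even counts was 48.6% to 51.6% in all 8 libraries. Every result that involves heated Col-0 rests on this pair, and the part of these library features in the results was not tested. Counts were tested with edgeR's quasi-likelihood test over all 110628 regions with Benjamini-Hochberg adjustment and a threshold of 0.05, and the changes below are log2 changes with TMM scaling unless another scaling is named.

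The wide regions were 1.35% of the arm regions and held 6.67% of their summed width, and each was measured deeply. Their median width was 1179 bp, from 1000 to 3481 bp, against a median of 179 bp over all regions. By width, 982 were under 1500 bp, 133 from there to under 2000 bp and 21 of 2000 bp or more. The median wide region had a mean of 1417 counts per library against 120 in regions under 200 bp, and the lowest had 400. All 1136 passed the filter on low counts and were tested. Replicates of a wide region differed by a median of 0.05 to 0.08 on the log2 scale in the 4 groups, against 0.15 to 0.25 in regions under 200 bp, so a given change is called more readily in a wide region. Whether the widths were called on single libraries or on pooled ones is not given in the sources used here. How far the calling of widths bears on the results was not tested.

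Within each library the wide regions took a larger share of arm counts in heated Col-0 than in any other group. Their share of all arm counts was 7.25% and 7.24% in the Col-0 control libraries, 7.77% and 7.64% in heated Col-0, 7.12% and 7.02% in eTK control, and 6.88% and 6.85% in heated eTK. The 4 groups did not overlap, and the order from high to low was heated Col-0, unheated Col-0, unheated eTK, heated eTK. The share differed by -0.508 percentage points between the 4 eTK libraries and the 4 Col-0 libraries (exact two-sided permutation test, p = 0.0286, the smallest that 4 against 4 allows), with all 4 eTK values below all 4 Col-0 values. This difference was -0.171 points without heat and -0.845 points after heat. Between the 4 heated and the 4 unheated libraries the share differed by 0.126 points (exact two-sided permutation test, p = 0.629). The heated mean minus the unheated mean was 0.462 points in Col-0 and -0.211 points in eTK, and with 2 libraries against 2 the smallest exact p is 0.333. The heat difference in eTK minus that in Col-0 was -0.673 points (exact permutation of the heat labels within genotype, p = 0.0556, the smallest that the 36 arrangements allow).

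The density of counts gave the same order. The counts per kb of wide regions, divided by those of regions under 200 bp in the same library, were 1.13 and 1.13 in Col-0 control, 1.53 and 1.47 in heated Col-0, 1.06 and 1.03 in eTK control, and 1 and 1 in heated eTK. In heated eTK a kilobase of a wide region thus held as many counts as a kilobase of the narrowest ones, and in heated Col-0 it held more in both libraries. On the log2 scale the ratio differed by -0.35 between eTK and Col-0 (exact two-sided permutation test, p = 0.0286, 4 libraries against 4). This difference was -0.11 without heat and -0.58 after heat. Heat moved the log2 ratio by 0.41 in Col-0 and by -0.07 in eTK. Between the 4 heated and the 4 unheated libraries it differed by 0.17 (exact two-sided permutation test, p = 0.429). The order depended on the class compared with: against regions of 500 to 1000 bp, a class added after the data were seen, the ratio was 1.03 and 1.03 in Col-0 control, 0.976 and 0.971 in heated Col-0, 1.04 and 1.04 in eTK control and 1.02 and 1.02 in heated eTK. There the log2 ratio was 0.06 lower in the 4 heated libraries than in the 4 unheated ones (-0.06, exact two-sided permutation test, p = 0.0286), by -0.08 in Col-0 and -0.03 in eTK, and eTK and Col-0 differed by 0.04 (exact p = 0.2).

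**Figure D1:**
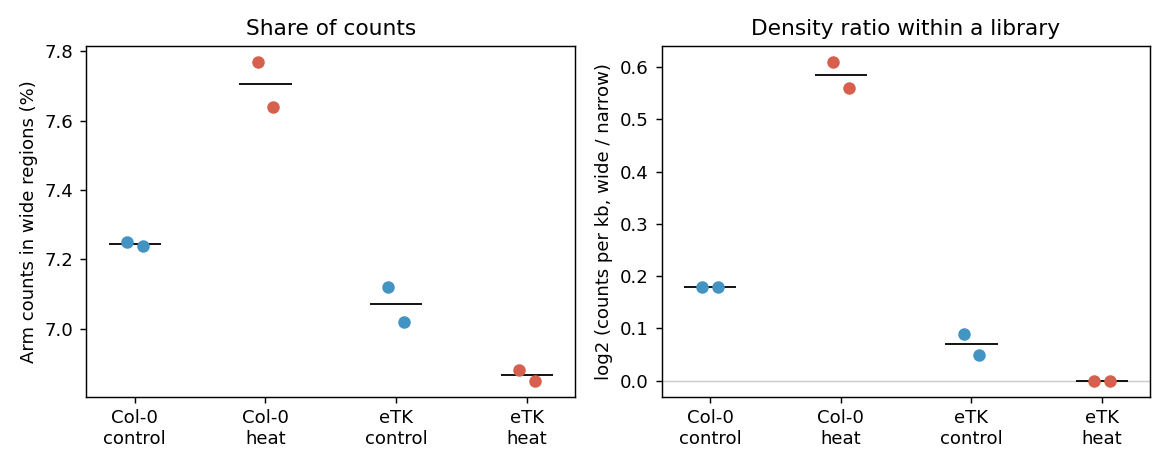
Share of arm counts that fell in wide regions in percent (left, the axis does not start at 0) and the log2 ratio of counts per kb in wide regions to those under 200 bp (right), with a point for each of the 8 libraries and a line at the mean of each group of 2. Both heated Col-0 libraries (7.77% and 7.64%) lie above all the others, and both heated eTK libraries (6.88% and 6.85%) lie below all the others.

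Most wide regions changed accessibility in Col-0 after 1 h at 37 °C. Of the 1136, 806 rose (71%) and 267 fell (23.5%), while over all 110628 regions 34.4% rose and 33.1% fell at the same threshold. In regions under 200 bp 31% rose and 21.9% fell, and in those of 500 to 1000 bp 66% rose and 25.4% fell. The median change of wide regions was 0.80, with quartiles at -0.10 and 1.26, beside -0.06 in regions under 200 bp, 0.84 in those of 500 to 1000 bp and -0.12 over all regions. The excess over the median of all regions was 0.92, a value that a scaling by 1 factor per library cannot change, and it turned to -0.18 with loess offsets, which remove each library's trend with the mean count. The split of calls moved with the scaling too: 590 rose and 430 fell with total counts, where the median of all regions stood at -0.75, and 302 rose and 668 fell with loess offsets.

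The Col-0 changes of wide regions had a larger and a smaller peak with a dip around 0. Counted in steps of 0.25 on the log2 scale, the fullest step among wide regions was from 1.00 to 1.25, with 165 regions, and a second peak of 98 regions lay from -0.75 to -0.50. In each of the steps on either side of 0 lay 51 regions, and the steps between there and the main peak filled gradually. Regions under 200 bp were fullest from -0.50 to -0.25 (16.3%). They had a slight second rise, from 4.75% at 0.75 to 1.00 to 5.33% at 1.00 to 1.25. The whole range of wide regions was from -1.88 to 3.48. In all, 453 wide regions (39.9%) were more than 2-fold higher and 33 more than 4-fold higher, while 28 (2.46%) were more than 2-fold lower. Among regions under 200 bp, 20% were more than 2-fold higher and 2.97% more than 2-fold lower. In those of 500 to 1000 bp the shares were 43.5% and 1.86%, so wide regions did not exceed that class in 2-fold rises. The positions of the peaks shift with the scaling by the same amount for every region, and with loess offsets by an amount that depends on the count.

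**Figure D2:**
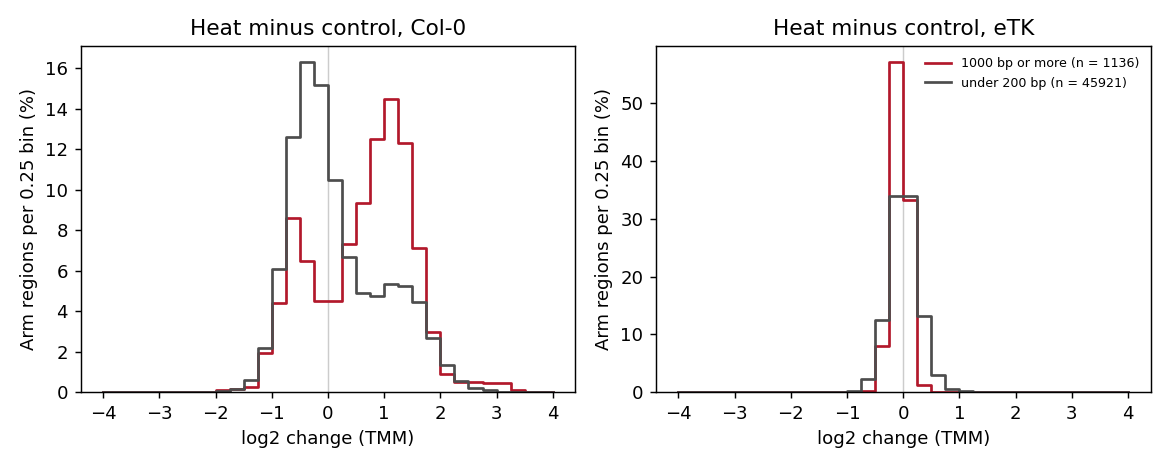
Percentage of arm regions per step of 0.25 in the log2 heat change with TMM scaling, for Col-0 (left) and eTK (right), in wide regions (red, n = 1136) and regions under 200 bp (grey, n = 45921). Wide regions in Col-0 have a main peak between 1.00 and 1.25 and a smaller one between -0.75 and -0.50, and in eTK 90.2% lie within 0.25 of 0.

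The rises and falls of the wide regions differed in place, as a description of regions grouped by their Col-0 call. Their Col-0 levels are in part fixed by that grouping. The 806 that rose went from a median of 35.5 CPM per kb in Col-0 control to 76 in heated Col-0, and in eTK the same regions had 30.8 unheated and 30.5 heated. The 267 that fell went from 30.1 to 19.6 CPM per kb in Col-0 and had 31.7 and 29.9 in eTK. Regions that rose lay at a median of 8.05 Mb from the centromere and regions that fell at 5.66 Mb. Their median widths, 1176 and 1211 bp, were close.

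The single widest region, chr2:18986563-18990044, was among the most heat-responsive. It spans 3481 bp and had 44.5 and 42.6 CPM in Col-0 control, 370 and 359 in heated Col-0, 40.1 and 46.7 in eTK control, and 36.5 and 42.8 in heated eTK. The 2 heated Col-0 libraries stood far above the other 6, which overlapped. The change was 3.07 ± 0.07 (SE, n = 2 against 2) in Col-0 (edgeR, adjusted p = 1.80e-64) and -0.13 ± 0.07 in eTK (edgeR, adjusted p = 0.26), and the difference between these responses was -3.19 ± 0.09 (edgeR, adjusted p = 1.43e-51).

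The next widest region, chr1:8388649-8391287, moved the other way. Over its 2638 bp it had 126 and 127 CPM in Col-0 control, 60.6 and 61 in heated Col-0, 138 and 131 in eTK control and 120 and 118 in heated eTK. The heated Col-0 pair lay below the other 6 libraries. It fell by 1.06 in Col-0 (SE 0.07, edgeR adjusted p = 1.19e-28) and by 0.18 in eTK (SE 0.06, edgeR adjusted p = 0.0409), and the eTK call was lost with DESeq2 (adjusted p = 0.125), arm-only TMM (0.0812) and loess offsets (0.148), and without any 1 of the 4 eTK libraries (adjusted p from 0.0822 to 0.37).

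Of the 10 widest regions, 7 rose and 3 fell in Col-0. Besides the first, those that rose were chr1:9285006-9287255, by 1.49 from 65.9 and 71.2 CPM to 195 and 189, and chr2:9054152-9056401, by 1.39 from 91.9 and 86.8 CPM to 242 and 225. Next came chr5:5954845-5957082 with 1.05, chr5:15510350-15512684 with 0.71, chr5:17814929-17817094 with 0.64 and chr5:7147077-7149270 with 0.54 (SE 0.06 or 0.07 each). The direction of the last 4 depended on the scaling: with loess offsets they stood at -0.34, -0.49, -0.56 and -0.69, and the last also turned to -0.09 with total counts. Calls were also lost at chr2:9054152-9056401 with loess offsets (0.08, adjusted p = 0.14), and with total counts at chr5:15510350-15512684 (0.09, adjusted p = 0.173) and chr5:17814929-17817094 (0.01, adjusted p = 0.835). The others that fell were chr5:14852795-14854947, from 83.8 and 79.5 CPM to 38.7 and 39 (-1.07 ± 0.07), and chr2:10543004-10545245, from 47.9 and 49.4 CPM to 26.8 and 32.6 (-0.71 ± 0.08). In eTK the last of these also fell, by 0.23 (edgeR adjusted p = 0.0197, lost with DESeq2 at 0.125 and without eTK control replicate 1, eTK control replicate 2 or eTK heat replicate 2 at 0.129, 0.129 and 0.183), while the 7 not yet described in eTK changed there by -0.12 to 0.04, none past the threshold.

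The 5 strongest rises in Col-0 were all of 3.10 or more on the log2 scale. At chr1:30058257-30059570 the levels were 12 and 11.9 CPM in Col-0 control, 138 and 128 in heated Col-0, 10.5 and 13.4 in eTK control and 11 and 14 in heated eTK, and the Col-0 change was 3.48 ± 0.08 (edgeR adjusted p = 6.96e-61). Only the heated Col-0 pair stood out, and the eTK change of 0.07 ± 0.09 did not pass the threshold (edgeR adjusted p = 0.707). On chromosome 1, chr1:27936603-27938200 and chr1:27938437-27939847 lay side by side and rose together, the first from 29.5 and 28.1 CPM to 261 and 236 and the second from 16.3 and 19.4 CPM to 168 and 153. Their changes were 3.11 ± 0.07 and 3.17 ± 0.08 in Col-0 and 0.05 ± 0.07 and 0.09 ± 0.08 in eTK. The other 2 were chr3:3991294-3993184, at 31.2 and 30.8 CPM before heat and 285 and 260 after it, and chr1:5501750-5503678, at 27.6 and 27.3 CPM before and 240 and 229 after. All 5 kept their direction and call under every scaling tried, loess offsets included, and in eTK none passed the threshold.

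The 5 strongest falls in Col-0 were smaller. At chr3:20200966-20202357 the levels were 65.4 and 67 CPM in Col-0 control, 15.7 and 20 in heated Col-0, 66.5 and 66.3 in eTK control and 62.2 and 60.9 in heated eTK, a change of -1.88 ± 0.08 in Col-0 (edgeR adjusted p = 5.47e-39) and -0.11 ± 0.07 in eTK (edgeR adjusted p = 0.343). The heated Col-0 pair was the only low one. At chr5:2039927-2041615 the level went from 75.5 and 77.6 CPM to 23.8 and 21.8 (-1.75 ± 0.08), and at chr5:2462174-2463266 from 106 and 110 CPM to 31.4 and 34.2 (-1.72 ± 0.07). The remaining pair, chr1:9083898-9085266 and chr3:10579883-10581031, changed by -1.40 ± 0.07 and -1.33 ± 0.09. In eTK, 2 of these 5 also fell by less, chr5:2462174-2463266 by 0.27 (edgeR adjusted p = 0.0017) and chr1:9083898-9085266 by 0.23 (edgeR adjusted p = 0.0111).

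Heat changed few wide regions in eTK, and more fell than rose. Of the 1136, 21 rose (1.85%) and 148 fell (13%), while over all regions 3.98% rose and 3.95% fell. In regions under 200 bp 2.03% rose and 2.38% fell, and in those of 500 to 1000 bp 5.09% rose and 9.87% fell. The median eTK change of wide regions was -0.05 beside 0.01, -0.03 and 0.02 in regions under 200 bp, of 500 to 1000 bp and in the whole table, and 1025 wide regions (90.2%) lay within 0.25 of 0. With loess offsets the split was 82 up and 112 down, and with DESeq2 21 up and 70 down. The counts also hung on single libraries: without eTK control replicate 1 they were 2 up and 54 down, and without eTK control replicate 2 they were 13 up and 86 down. Without eTK heat replicate 1 the falls were 91, without eTK heat replicate 2 there were 6 up and 90 down, and without either heated Col-0 library, which enters only through the shared estimate of the spread, 39 rose.

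The named eTK changes were small beside those in Col-0. The strongest fall was at chr4:11645755-11647028, with 68.5 and 65.4 CPM in eTK control and 40.4 and 40.5 in heated eTK (-0.73 ± 0.07, edgeR adjusted p = 4.43e-14), while Col-0 had 75.1 and 74.4 CPM unheated and 66 and 68 heated (-0.16 ± 0.07, edgeR adjusted p = 0.0351). This was a wide region with a larger fall in eTK than in Col-0, a difference of -0.57 ± 0.09 (edgeR adjusted p = 1.17e-07). Of the next 4, chr5:553755-555195 and chr2:16067587-16068613 fell in eTK by 0.49 and 0.47 and rose in Col-0 by 1.23 and 1.27, so the genotypes moved in opposite directions. At chr5:553755-555195 the levels were 47.9 and 46.5 CPM against 31.6 and 35.7 in eTK, and 56.8 and 53.5 against 127 and 133 in Col-0. The others, chr3:510210-511310 and chr1:20968198-20970017, fell in both, by 0.48 and 0.45 in eTK and by 0.86 and 1.10 in Col-0.

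The clearest rise in eTK was at chr4:17874984-17875995, from 14.7 and 15.4 CPM to 20.9 and 23.9 (0.57 ± 0.08, edgeR adjusted p = 3.33e-07). The same region rose in Col-0 from 21.8 and 21 CPM to 104 and 92.9 (edgeR adjusted p = 1.89e-47), so the eTK rise was smaller by 1.62 (a difference of -1.62 ± 0.11, edgeR adjusted p = 1.60e-24). The other 3 named rises, chr1:23352507-23353686 with 0.34, chr3:939572-940595 with 0.33 and chr1:2620565-2621746 with 0.32, also rose in Col-0, by 1.84, 1.25 and 1.16, and each lost its eTK call without at least 1 of the eTK libraries. The largest eTK ratio, at chr5:15496035-15497252, came from a nearly empty region, with 16 and 22 counts in the eTK control libraries and 37 and 42 in the heated ones. Its change of 1.02 ± 0.28 (edgeR adjusted p = 0.0114) lost the call without eTK control replicate 1 (0.211) or eTK heat replicate 2 (0.0879).

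The Col-0 and eTK heat responses share no library, and they were weakly related across wide regions. Of the 806 that rose in Col-0, 18 rose in eTK, 79 fell (9.8%) and 709 did not pass the threshold. Of the 267 that fell in Col-0, 2 rose in eTK, 57 fell (21.3%) and 208 did not pass. Read the other way, 38.5% of the 148 regions that fell in eTK fell in Col-0 and 53.4% rose there. Among all 1136 wide regions 23.5% fell and 71% rose in Col-0, and 13% fell in eTK. The same overlaps over all regions are not given here, so they are not read as particular to wide regions. Spearman's rho between the responses was 0.38 over the 1136 regions and 0.18 over the regions under 200 bp, given as a description across regions, which are not independent and differ in counting error. The 2 regions that fell in Col-0 and rose in eTK, named after their values were seen, were the nearly empty chr5:15496035-15497252 and chr5:14822612-14824733, which had 54.6 and 51.9 CPM in Col-0 control, 40.7 and 41.5 in heated Col-0, 24.4 and 26 in eTK control and 31.9 and 29.1 in heated eTK.

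**Figure D3:**
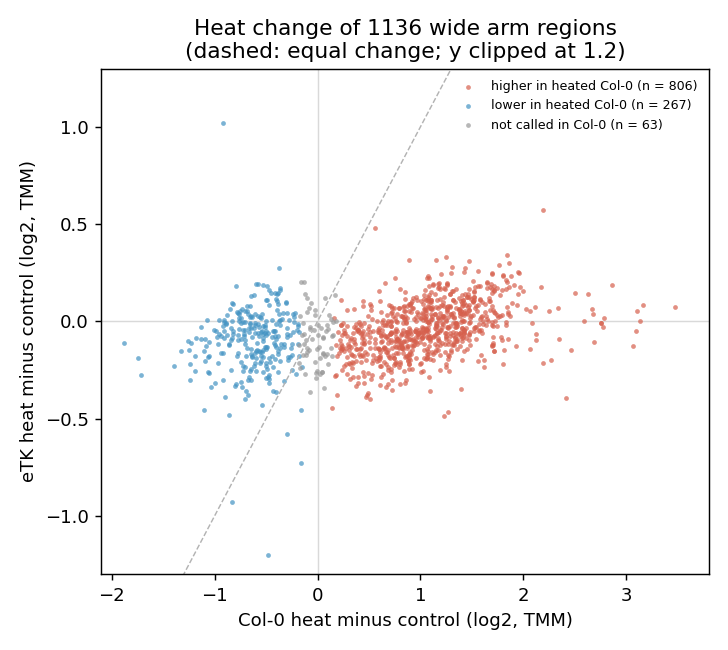
Heat change in eTK against heat change in Col-0 for the 1136 wide regions (both log2 with TMM scaling), coloured by the Col-0 call, with a dashed line at equal change and the lowest eTK value, from a region with 0 heated eTK counts, drawn at the clipped edge. Col-0 changes run from -1.88 to 3.48, while 90.2% of the eTK changes lie within 0.25 of 0.

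The difference between these responses was itself called in most wide regions. The heat change was lower in eTK than in Col-0 at 817 regions (71.9%) and higher at 223 (19.6%), while over all regions 33% were lower and 25.7% higher. In regions of 500 to 1000 bp 66.4% were lower and 19.4% higher, and in those under 200 bp 28.6% were lower and 14.1% higher. The median difference of wide regions was -0.87, beside -0.88 in regions of 500 to 1000 bp, 0.03 in those under 200 bp and 0.09 over all regions. With total counts 596 wide regions were lower and 367 higher, and with loess offsets 240 were lower and 615 higher. The 5 lowest included 4 of the 5 strongest Col-0 rises and the widest region, from -3.40 ± 0.13 at chr1:30058257-30059570 to -3.08 ± 0.11 at chr1:27938437-27939847. The 5 highest were 4 of the strongest Col-0 falls, led by chr3:20200966-20202357 with 1.77 ± 0.11, and the nearly empty chr5:15496035-15497252 with 1.94 ± 0.29. These comparisons share the Col-0 libraries with the Col-0 heat response, so this overlap is no separate evidence.

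The change in heated Col-0 varied with place along the arm. The median Col-0 change of wide regions was 0.39 at 3 to 5 Mb from the centromere (312 regions), 0.58 at 5 to 7 Mb (234 regions), 0.76 at 7 to 9 Mb (203 regions), 1.02 at 9 to 11 Mb (145 regions) and 1.15 at 11 to 17 Mb (242 regions). Over the same steps the share that rose went from 57.7% through 63.2%, 73.9% and 77.2% to 89.3%, and the share that fell went from 34.9% to 7.85%. Regions under 200 bp moved less, from a median of -0.18 nearest the centromere to 0.19 farthest out. In eTK the medians of wide regions over the 5 steps stayed between -0.08 and 0.00. The unheated difference, eTK minus Col-0, also varied with distance. Its median in wide regions went from -0.04 nearest the centromere to -0.24 farthest out, and the share lower in eTK from 20.2% to 66.9%. In regions under 200 bp that median went from 0.10 to -0.10. The Col-0 control libraries are in both contrasts. Spearman's rho of distance with the Col-0 change was 0.33 over wide regions and 0.17 over regions under 200 bp. It was 0.38, 0.31, 0.41, 0.34 and 0.32 on chromosomes 1 to 5, as descriptions over 298, 196, 211, 167 and 264 regions that share the same 4 libraries. The wide regions themselves were spread along the arms, as 1.65% of the arm regions at 3 to 5 Mb and 1.07% to 1.42% farther out.

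**Figure D4:**
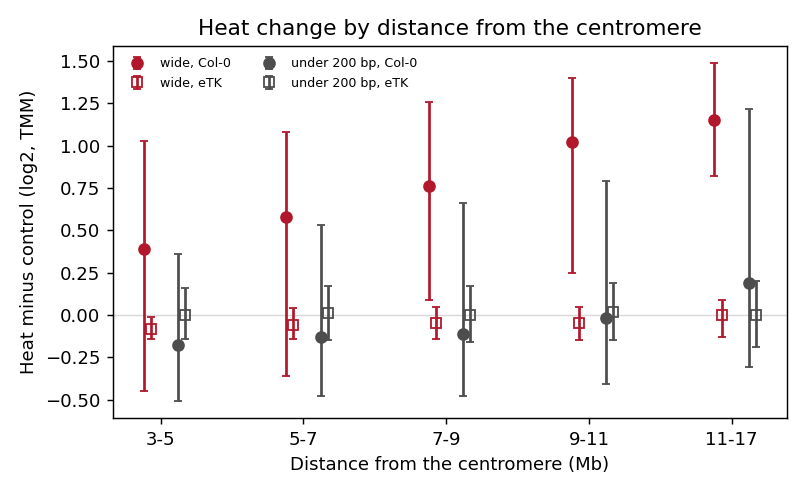
Median (points) and quartiles (bars) of the log2 heat change with TMM scaling in 5 steps of distance from the centromere, for wide regions (red) and regions under 200 bp (grey) in Col-0 (filled circles) and eTK (open squares). The Col-0 median of wide regions goes from 0.39 nearest the centromere to 1.15 at 11 to 17 Mb, and the eTK medians of wide regions lie between -0.08 and 0.00.

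The 5 chromosomes gave similar values, with a median Col-0 change between 0.68 on chromosome 1 and 0.87 on chromosome 3, and between 67.8% and 74.4% of wide regions higher. Width within the set had little relation to the Col-0 change, with a Spearman's rho of -0.08, and the rho with the unheated density in CPM per kb was 0.03 for Col-0, whose control libraries are also in the contrast, and -0.23 for eTK, whose libraries are not. At the edge of the set, the 5 regions just inside the width limit, at 1000 bp each, had Col-0 changes from -0.95 to 2.76, and the 5 just outside it had changes from -0.97 to 1.00.

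Compared at like counts, the wide regions did not stand above the narrower classes at every level. Regions were sorted by their mean count in the eTK libraries, which do not enter the Col-0 contrast. At 500 to 1000 counts the median Col-0 change was 1.35 in the wide class (114 regions) and 0.73 in the class of 500 to 1000 bp (5337 regions). It was 0.81 in regions of 200 to 500 bp (4804 regions) and 1.55 in the few regions under 200 bp (47 regions). At 1000 to 1500 counts the medians were 0.77 (470 wide regions) and 0.89 (1541), with 1.38 in the 214 regions of 200 to 500 bp, and at 1500 to 2500 counts 0.71 (447 wide regions) and 1.03 (332). Over all wide regions the median was 0.05 below that of the class of 500 to 1000 bp and 0.85 above that of regions under 200 bp.

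**Figure D5:**
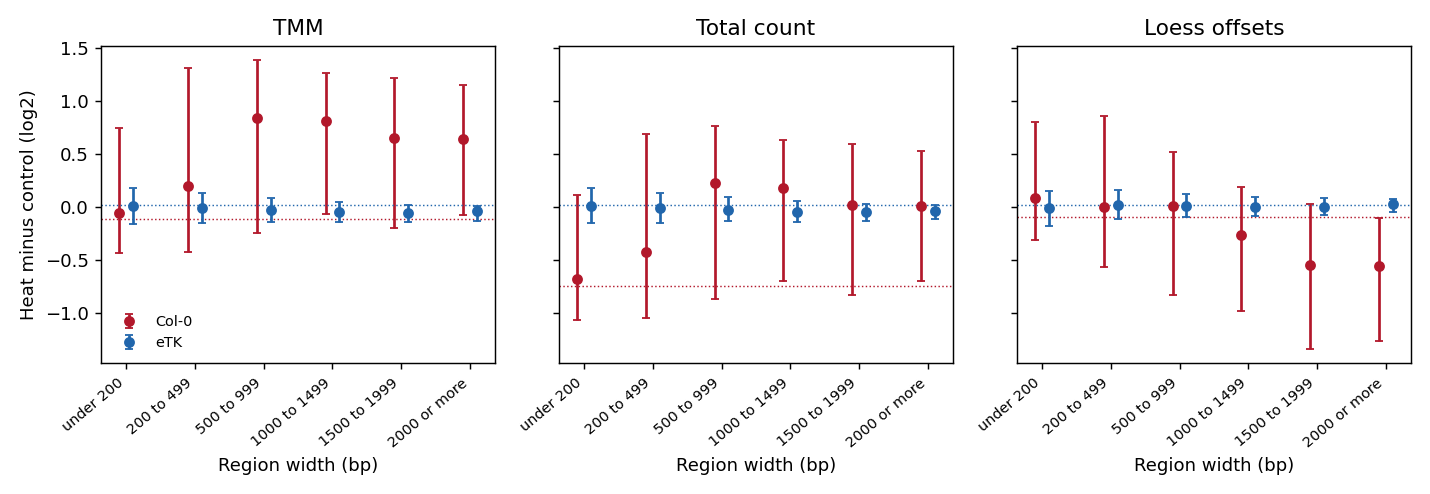
Median (points) and quartiles (bars) of the log2 heat change in 6 width classes of arm regions for Col-0 (red) and eTK (blue) with TMM, total count and loess scaling, with dotted lines at the median over all regions. The Col-0 medians of the classes of 500 bp and more lie above the dotted line with TMM and total counts, and those of 1000 bp and more lie below it with loess offsets.

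Close neighbours were only somewhat more common at wide regions than at regions under 200 bp, and other width classes were not compared. In 579 of them (51%) another accessible region lay within 200 bp, against 45.3% of the regions under 200 bp, and the median gap was 195 bp against 228 bp. Another wide region was the nearest neighbour of 13 of the 1136, and wide regions were 1.35% of all arm regions. The Col-0 change of a wide region and that of its nearest region had a Spearman's rho of 0.52 where the gap was under 200 bp (579 pairs) and 0.34 at the next distance (322 pairs), and neighbours share the same libraries. In regions under 200 bp the same values were 0.68 and 0.54.

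Without heat, more wide regions were lower in eTK than higher. Of the 1136, 432 were lower (38%) and 73 higher (6.43%), while over all regions 13.4% were lower and 6.6% higher, and the median difference was -0.13 beside 0.01. In regions of 500 to 1000 bp 35.7% were lower and 3.77% higher, with a median of -0.14. In those under 200 bp 6.13% were lower and 2.53% higher. The split of wide regions was 140 higher and 301 lower with total counts, 112 higher and 293 lower with arm-only TMM and 30 higher and 496 lower with DESeq2. It turned with loess offsets to 335 higher and 97 lower. It also hung on single libraries: without Col-0 control replicate 1 or 2 there were 35 or 36 higher and 230 or 254 lower, without eTK control replicate 1 there were 41 higher, and without eTK control replicate 2 there were 46 higher and 269 lower. After heat 833 were lower in eTK (73.3%) and 248 higher (21.8%), while over all regions 37.9% were lower and 37.3% higher. In regions of 500 to 1000 bp 69.3% were lower and 22.8% higher after heat, and in those under 200 bp 33.7% and 28.2%. With total counts 673 wide regions were lower and 377 higher, and with loess offsets 300 and 677. Both comparisons share libraries with the heat responses above.

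The strongest gain in eTK was at chr4:10527593-10529055, with 17.3 and 18.8 CPM in Col-0 control and 79.3 and 77.1 in eTK control (2.12 ± 0.07, edgeR adjusted p = 1.50e-47). Heat left it at 17.4 and 19.4 CPM in Col-0 and 80.7 and 72.3 in eTK, with no heat change past the threshold in either genotype. The next highest, chr4:14971761-14972791 with 1.55 ± 0.09 and chr4:14975114-14976271 with 1.26 ± 0.08, lay close together on the same chromosome. Their levels in the control libraries were 10.9 and 12 CPM against 32.1 and 34.7, and 15.8 and 16.6 CPM against 36.8 and 40.6.

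At the low end, 7 of the 1136 wide regions had less than 10% of the Col-0 control level in eTK control, and 5 of them were on chromosome 5. That chromosome held 264 of the wide regions. The share of such low regions among all arm regions is not given here, so neither number is read as particular to wide regions. At chr5:15649430-15650767 the counts were 1633 and 1474 in Col-0 control, 283 and 371 in heated Col-0, 0 and 4 in eTK control and 2 and 0 in heated eTK. After heat its Col-0 level was 870 times that of eTK, with a 95% counting interval from 241 to 7184. At chr5:2106062-2107066 the counts were 1358 and 1158 in Col-0 control, 317 and 359 in heated Col-0, 2 and 2 in eTK control and 0 in both heated eTK libraries, so that heated Col-0 was at least 600-fold higher, taking 3 counts over the group as the floor. At chr5:8085127-8086413 the counts were 2192 and 1964 in Col-0 control and 2 and 4 in eTK control. Intervals and floors cover counting error only, and whether the DNA at these places is closed, absent or different in sequence in eTK was not tested.

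The other 4 kept a low signal in eTK: chr4:9498914-9499956 had 43.1 and 42.9 CPM in Col-0 control against 0.362 and 0.365, and chr5:15496035-15497252 had 45.7 and 45 CPM against 0.414 and 0.573. At chr5:140392-141989 the levels were 50.5 and 51 CPM against 2.49 and 2.16, and at chr1:3263565-3265027 they were 44.4 and 44.9 CPM against 2.9 and 3.96. Of the 7, those at chr5:140392-141989, chr1:3263565-3265027 and chr4:9498914-9499956 rose in heated Col-0, by 1.31, 0.88 and 0.56, and the others fell. They were picked for their genotype difference, which is therefore a description.

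The densest wide regions, ranked by mean CPM per kb over the 8 libraries, were at 125 to 110 CPM per kb. The ranking includes the heated Col-0 libraries, so their direction in Col-0 is in part fixed by the choice and is not read here. The densest, chr2:9695911-9696930, had 95.9 and 96.9 CPM in Col-0 control, 257 and 237 in heated Col-0, 89.3 and 83.6 in eTK control and 78.8 and 78.1 in heated eTK. The fourth, chr3:1959194-1960260, differed between genotypes at every temperature, with 135 and 135 CPM in Col-0 control and 299 and 301 in heated Col-0 against 16.2 and 18.8 in eTK control and 16.8 and 20 in heated eTK (-2.94 ± 0.07 between the controls, edgeR adjusted p = 1.76e-61). The 5 sparsest, ranked by the same mean, were at 11.5 to 17.5 CPM per kb. That mean includes the eTK libraries, so low levels in eTK are in part fixed by the choice and are not read here. Of the 5 sparsest, 3 were nearly empty in eTK and are described above. Another, chr5:16677869-16679050, was also lower there, with 29.7 and 30.4 CPM in Col-0 control against 5.07 and 4.12. The last, chr3:20279820-20280857, was alike in the genotypes without heat, with 19.4 and 18.8 CPM against 20.6 and 19.9.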

How the data were processed

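The deposited values are raw counts per accessible region, per the file headers and labels, with no normalization by the authors. Per the submitters' processing notes, MACS2 2.2.7.1 and Bowtie2 2.4.4 were among the tools, with featureCounts (Subread 2.0.6), fastp 0.24.0 and FastQC 0.11.9. The build, the pooling of peaks and the treatment of duplicates are not given in the sources used here. Nuclei were sorted in lots of 50000. The batch label is the same for all 8 libraries.

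Members, classes and named regions were chosen with earlier results of these data known. The table was fitted with edgeR 4.0.16 and limma 3.58.1 in R 4.3.3, with 1 mean for each of the 4 groups, TMM factors and quasi-likelihood tests. filterByExpr removed no region. SE was taken as the size of the log2 change divided by the root of F. CPM use the TMM-scaled library total. P-values were two-sided. Named regions were the 10 widest, the 5 highest and 5 lowest for each heat response and for their difference, 3 each way for the genotype differences (mean of at least 50 counts, past the threshold), the 5 densest, the 5 sparsest, and the 5 on either side of 1000 bp. On simulated data with 200 of 110628 regions changed for each contrast, the Col-0 heat contrast recovered 81% of the 2-fold changes and 36% of those of 1.5-fold, beside 3 false calls. The difference between responses recovered 70% and 18%, beside 13 false calls. The changed regions were of all widths, so recovery in wide regions was not measured. All other regions were simulated without change, whereas 34.4% rose and 33.1% fell in the real Col-0 contrast. The simulation therefore cannot show how the scaling bears on the real calls. Alternatives were total counts, TMM on arm regions, loess offsets (span 0.3), DESeq2 1.42.0, no filter, a replicate block, each library left out, and other limits of width and distance. Replicate numbers did not pair libraries.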

Additional observations from a re-analysis of the deposited data

Results flagged for a closer look

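The heat response of wide regions differed between eTK and Col-0 in the following values. The share of arm counts in wide regions had a difference between responses of -0.673 percentage points and the log2 density ratio to regions under 200 bp one of -0.48, both at the smallest exact permutation p of the design (p = 0.0556). In both measures the heated Col-0 pair lay above the unheated pair and the heated eTK pair below its own. By edgeR's test of the difference itself, 817 wide regions (71.9%) had a lower and 223 (19.6%) a higher heat response in eTK. In regions of 500 to 1000 bp these shares were 66.4% and 19.4%. The named ones with a higher response in eTK were chr5:15496035-15497252 (1.94, nearly empty in eTK), chr3:20200966-20202357 (1.77), chr5:2039927-2041615 (1.56), chr5:2462174-2463266 (1.44) and chr3:10579883-10581031 (1.17). Those with a lower response were chr1:30058257-30059570 (-3.40), chr2:18986563-18990044 (-3.19), chr1:5501750-5503678 (-3.15), chr3:3991294-3993184 (-3.13) and chr1:27938437-27939847 (-3.08). No explanation of these differences was tested.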

How the results depend on the processing

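With loess offsets, the counts of wide regions that changed were 302 up and 668 down for Col-0 heat, 82 up for eTK heat, 615 higher and 240 lower for the difference between responses, 335 higher and 97 lower for eTK against Col-0 without heat, and 677 higher and 300 lower after heat. By their construction these offsets remove any trend with the mean count, and wide regions have the highest counts. With total counts, 430 fell in heated Col-0, 367 had a higher response in eTK, and 140 and 377 were higher in eTK without and with heat. Arm-only TMM gave 112 regions higher in unheated eTK than in unheated Col-0 and DESeq2 gave 30, and DESeq2 gave 70 falls in heated eTK. The cause of these other shifts was not tested. The median Col-0 change of wide regions minus that of regions under 200 bp was 0.85 and became -0.36 with loess offsets, 0.70 for widths of 1500 bp or more, 0.91 beyond 5 Mb and -0.05 against regions of 500 to 1000 bp, and 0.80 to 0.85 with 1 library left out. In eTK it was -0.06 and became 0.01 with loess offsets and -0.02 against regions of 500 to 1000 bp, and -0.09 to -0.04 with 1 library left out. The log2 density ratio, eTK minus Col-0, became 0.04 against regions of 500 to 1000 bp. Its heat change in Col-0 became -0.08 there and 0.45 against regions under 150 bp, and in eTK -0.03 against those of 500 to 1000 bp. The counts with 1 library left out ran from 792 to 806 up and 255 to 268 down for Col-0 heat, 2 to 39 and 54 to 206 for eTK heat, 209 to 224 higher and 806 to 813 lower for the difference between responses, 35 to 89 and 230 to 496 for eTK against Col-0 without heat and 239 to 248 and 828 to 833 after heat. The eTK minus Col-0 share ran from -0.587 to -0.409 points and the density ratio from -0.42 to -0.27 (exact permutation p from 0.0286 to 0.0857, 4 libraries against 3). The share's heat change ran from 0.396 to 0.528 points in Col-0 and from -0.263 to -0.159 in eTK, and that of the density ratio from 0.38 to 0.44 and from -0.09 to -0.05. Single regions that turned direction in Col-0 heat with loess offsets were chr5:15510350-15512684 (-0.49), chr5:5954845-5957082 (-0.34), chr5:7147077-7149270 (-0.69, and -0.09 with total counts) and chr5:17814929-17817094 (-0.56). With replicate number as a block the counts were 809 up and 268 down, 30 and 191, 228 and 821, 87 and 482, and 250 and 834 in the order above. The same number did not pair libraries, with a correlation of deviations over 0.1 in 0 of 6 pairs of groups (-0.0184 to 0.0577). Where a group kept a single library, its spread was taken from the rest.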
